A study of Mus musculus with 2 samples.

Results

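The endothelin axis and the DLX and HAND2 transcription factors of the pharyngeal arches were followed here as 10 genes: the ligands Edn1 and Edn3, the converting enzyme Ece1, the receptors Ednra and Ednrb, and the transcription factors Dlx1, Dlx2, Dlx5, Dlx6 and Hand2. They were taken by gene symbol from the 32285 genes of the deposited count matrices, and they were chosen with earlier results of these data known. The series held 2 single-cell RNA-seq libraries of E13.5 mouse embryos, 1 per genotype, each made from 3 pooled embryos. Control embryos carried Isl1-Cre and R26R-eYFP. Mutant embryos carried the same alleles plus Pik3caH1047R, an activating form of the catalytic subunit of PI3K that is expressed after Cre recombination. Isl1-Cre acts where the Isl1 promoter has been active, so the cells were descendants of the cardiopharyngeal mesoderm and of every other Isl1 lineage in the dissected tissue. The comparison asked how the transcriptome of the eYFP-labelled, FACS-sorted cells differed with the mutant allele.

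With 1 library per genotype there was no replicate, and the report gives neither p-values nor standard errors. A level is the gene's summed UMIs per 1000000 UMIs of a class of cells (CPM) with an exact Poisson 95% interval. A difference is the log2 ratio of CPM, mutant over control, with an exact binomial 95% interval. A share of cells has a Clopper-Pearson 95% interval. These intervals cover counting error only, and a difference beyond them can still lie between 2 pools of embryos, 2 sorts or 2 libraries rather than between genotypes, which cannot be told apart. The intervals of levels and ratios treat UMIs as independent, so they leave out the uneven spread of a gene's UMIs over cells. Levels are compared within a gene, not between genes, since the counts are not per transcript length.

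After the filters on gene number and mitochondrial UMIs, 2783 control cells and 3489 mutant cells remained, with medians of 20412 and 16839 UMIs per cell and totals of 63153191 and 69717583 UMIs. The libraries shared 28 barcodes, of which 12 passed the filters. The libraries also differed in the sex of their cells, since 95.5% of control cells and 33.6% of mutant cells were female-like by Xist and Y-linked genes, and 53.3% of mutant cells were male-like. Clusters were named from markers as branchial muscle-like (888 control and 841 mutant cells), mesenchyme-like (610 and 588), endothelial-like (147 and 699), neuron-like (166 and 456), epithelium-like (212 and 305), lung or foregut mesenchyme-like (345 and 66), cardiomyocyte-like (54 and 184) and mesothelium-like (70 and 66), and these 8 classes were compared between libraries. Smaller classes are described by their levels. The tissue label was pharyngeal arch, but the dissected piece was the whole upper body above the liver, and lung or foregut mesenchyme-like, cardiomyocyte-like and 47 hepatoblast-like cells, the latter seen in the mutant library alone, go beyond that label.

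Endothelins are short peptides that are cut from a longer precursor, lastly by endothelin-converting enzyme, and signal through G protein-coupled receptors. In the embryo, EDN1 from the arch epithelium, mesoderm and endothelium acts on EDNRA in neural crest mesenchyme and gives the lower jaw its identity through Dlx5, Dlx6 and Hand2, whereas EDN3 and EDNRB are known for melanocyte and enteric neuron precursors. Dlx1 and Dlx2 act more widely in the arch mesenchyme, and all the DLX genes followed here also work in GABAergic neurons of the forebrain.

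In GRCm38, the DLX genes come in convergent pairs, Dlx1 at chr2:71528113-71533981 on the plus strand with Dlx2 at chr2:71543408-71546754 on the minus strand, 9427 bases apart, and Dlx6 at chr6:6863334-6868568 on the plus strand with Dlx5 at chr6:6877805-6882085 on the minus strand, 9237 bases apart. An antisense RNA gene covers each of 3 members: Dlx1as covers all 5869 bases of Dlx1, Dlx6os1 covers all 5235 bases of Dlx6, and Hand2os1 covers 3251 bases of Hand2 (chr8:57320983-57324633, plus strand). Whether the counting used strand was not given in the sources used here, so it is not known here whether reads of these overlapping pairs were kept apart. RefSeq promoter windows of GRCm38.p6, 250 bases before and 50 after a start, were matched for 8 of the 10 members, not for Dlx5 and Dlx6. Both strands were searched for 5 short motifs. The core of the hypoxia response element, ACGTG, was in 19.6% of all 32851 windows. The AP-1 motif, TGANTCA, was in 7.81%. The GATA factor motif, AGATAA, was in 11.2%. The TATA box, TATAAA, was in 13.6%. The CCAAT box was in 37.4%. The promoters of Edn1 and Ednrb are shown because these were the ligand and the receptor with higher levels in mutant endothelial-like cells. Both are written along the sense strand of the gene, with CCAAT, or its reverse complement, in capitals. The first is chr13:42301226-42301475 on the plus strand and the second chr14:103843702-103843951 on the minus strand.
Edn1 promoter: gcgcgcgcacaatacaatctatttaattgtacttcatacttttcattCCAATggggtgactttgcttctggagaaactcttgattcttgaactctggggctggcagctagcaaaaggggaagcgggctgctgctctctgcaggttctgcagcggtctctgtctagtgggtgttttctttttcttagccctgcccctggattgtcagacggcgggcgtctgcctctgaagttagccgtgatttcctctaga
Ednrb promoter: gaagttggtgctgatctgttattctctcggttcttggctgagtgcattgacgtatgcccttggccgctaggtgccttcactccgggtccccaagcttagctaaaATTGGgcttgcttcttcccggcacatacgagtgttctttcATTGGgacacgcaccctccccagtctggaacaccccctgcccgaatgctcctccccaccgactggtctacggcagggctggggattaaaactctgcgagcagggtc
Just inside the Edn1 transcript, at chr13:42301478-42301507, 30 bases hold the GATA factor letters and the ACGTG letters, both as their reverse complements and in capitals here.
Edn1 start: cgggtcTTATCTctggctgCACGTtgcctg
The Ednrb window held none of the other motifs searched. Among the other members, the ACGTG letters and CCAAT were also in windows of Ece1, Dlx2 and Hand2. The GATA factor letters were also in the Hand2 window. A match here is a run of letters and was not tested as a binding site.

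**Figure D1:**
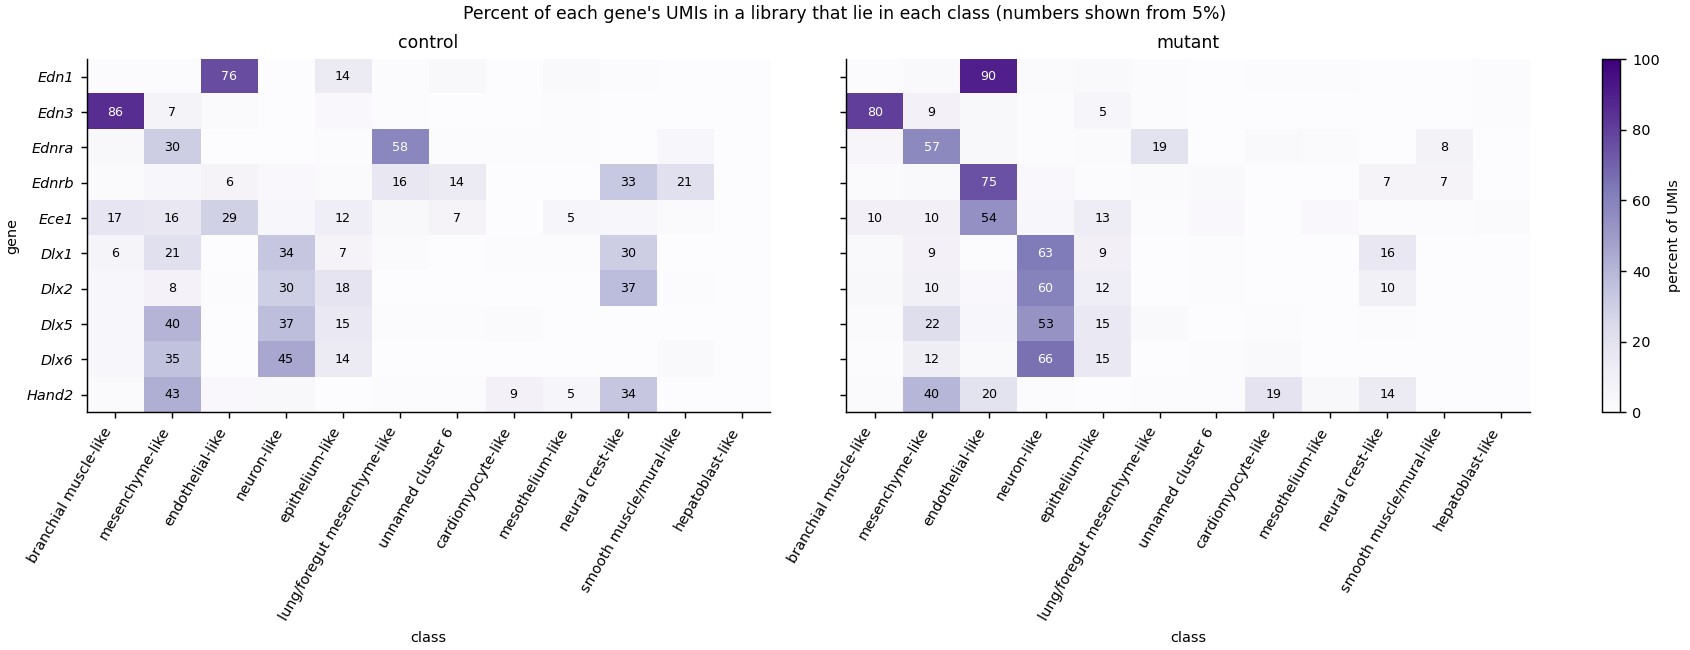
Percent of each gene's UMIs in a library that came from each class of cells, for control (left) and mutant (right), with the gene in rows, the class in columns and the percent as colour. Edn1 lies mainly in endothelial-like cells in both libraries (76.3% and 89.8%) and Edn3 in branchial muscle-like cells (85.5% and 80.3%), whereas the endothelial-like share of Ednrb goes from 6.46% to 74.7%.

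The ligands and receptors were read from different cells. Edn1 came from endothelial-like cells, Edn3 from branchial muscle-like cells and Ednra from mesenchyme of 2 kinds, with 30.2% of its control UMIs in mesenchyme-like and 57.9% in lung or foregut mesenchyme-like cells. Control Ednrb was spread over neural crest-like, smooth muscle or mural-like, lung or foregut mesenchyme-like and macrophage-containing cells. In the mutant library, 74.7% of the Ednrb UMIs came from endothelial-like cells. These cells made up 5.28% of the control library and 20.03% of the mutant library, so a share of a gene's UMIs moved with cell number as well as with the level per UMI, and the levels within a class are given next.

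A member was counted as measured in a class at 20 or more UMIs over both libraries, and as higher or lower at a difference of 2-fold or more in size. A gene can pass this threshold through the mutant library alone. Dlx5 did so in endothelial-like cells (1 control and 27 mutant UMIs). Edn1 did so in neuron-like (0 and 26), branchial muscle-like (2 and 22) and mesenchyme-like cells (2 and 52). The counts and medians below include such genes, so they are partly set by the threshold, which was the same for all genes. In endothelial-like cells, 8 members were measured and 4 were higher in the mutant library (Edn1, Ednrb, Hand2 and Dlx5), where 9.18% of all measured genes were higher, and 0 were lower, where 6.18% of all genes were. Their median log2 ratio was 0.79, against -0.06 over all measured genes. With each cell thinned to 5000 UMIs, Ednrb alone of the 4 was still past 2-fold (1.97, 1.55 to 2.42), Edn1 was at 0.61 and Hand2 at 0.48, Dlx5 had 2 UMIs left, and Edn3 was lower, at -1.38 (-2.65 to -0.02) from 9 and 16 UMIs. In neuron-like cells, 3 of 9 were higher (Dlx1, Dlx2 and Edn1) beside 4.27% of all genes, and 1 was lower (Hand2) beside 9.96%. Branchial muscle-like cells had 2 of 8 higher (Edn1 and Dlx2) beside 9.56% of all genes, and 0 lower beside 4.78%. Mesenchyme-like cells had 2 of 10 higher (the same genes, Edn1 and Dlx2) beside 5.57%, and 0 lower beside 7.35%.

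The other classes held fewer measured members. In epithelium-like cells 1 of 9 was higher (Dlx1) beside 5.35% of all genes and 0 lower beside 5.87%. In lung or foregut mesenchyme-like cells 0 of 4 were higher beside 4.49% and 0 lower beside 6.12%. In cardiomyocyte-like cells 0 of 2 were higher beside 5.78% and 1 was lower (Ednra) beside 9.52%. In mesothelium-like cells 1 of 5 was higher (Edn1) beside 10.9% and 1 was lower (Edn3) beside 5.75%. The measured members had a median log2 ratio of 0.51 (branchial muscle-like), 0.28 (mesenchyme-like), 0.53 (neuron-like) and 0.36 (epithelium-like), where the medians over all genes were 0.02, -0.01, -0.09 and -0.05. The neuron-like median includes Edn1, entered at a floor of 3 counts in the control library because no control UMI was found. That median without Edn1 was not computed.

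**Figure D2:**
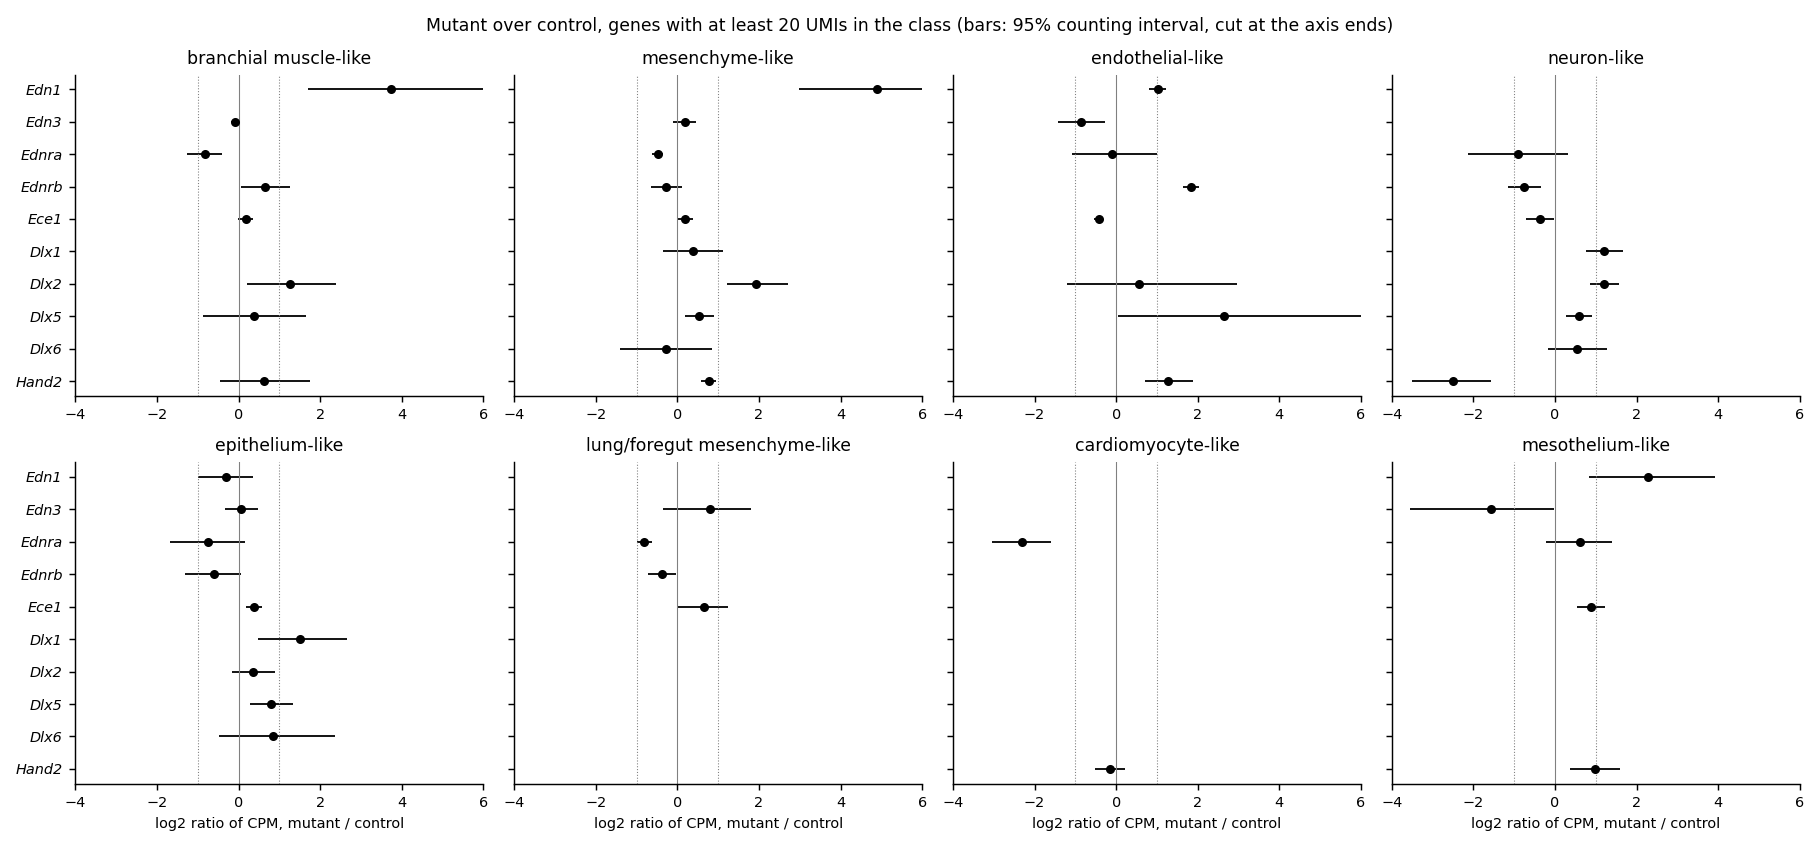
Log2 ratio of CPM, mutant over control, for each member with 20 or more UMIs in the class (points, with 95% counting intervals that stop at the axis ends); dotted lines mark 2-fold. Ednrb and Edn1 lie at 1.83 and 1.01 in endothelial-like cells, Dlx1 and Dlx2 at 1.21 and 1.201 in neuron-like cells, and Edn3 near 0 in branchial muscle-like cells; Edn1 in neuron-like cells has no point because its control count was 0.

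Edn1, the precursor of endothelin-1 (chr13:42301476-42307990, plus strand), was a gene of endothelial-like cells in both libraries, and its level there was higher in the mutant library. Endothelial-like cells held 206 control and 1786 mutant UMIs, or 63.5 CPM (95% interval 55.1 to 72.8) and 128 CPM (122 to 134), a log2 ratio of 1.01 (0.81 to 1.23). At least 1 UMI was found in 25.9% of control and 48.1% of mutant cells, at median depths of 20203 and 17004 UMIs. After each cell was thinned to 5000 UMIs the shares were 15.3% and 32.2%. Branchial muscle-like cells, which are not an endothelial source, gave shares of 0.23% and 1.78% at median depths of 26400.5 and 22339 UMIs.

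The control Edn1 level rested on few cells. Among the 147 control endothelial-like cells, 109 had no Edn1 UMI, 12 had more than 5 UMIs, and the top 10% of cells held 76.7% of the UMIs. In the mutant library 363 of 699 cells had none, 113 had more than 5, and the top 10% held 54.9%. The mutant level was alike in female-like cells (136 CPM, 125 to 146) and male-like cells (136 CPM, 128 to 144), and the control female-like cells stood at 64.2 CPM.

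The endothelial-like cells fell into 6 sub-clusters, made after the class values had been seen, and Edn1 did not differ the same way in each. In the largest, led by Fabp4, a fatty acid-binding protein of capillary endothelium, and Apln, the apelin ligand of sprouting vessels, the level was 36.2 CPM in 77 control cells and 133 CPM in 410 mutant cells, a log2 ratio of 1.88. Subtype markers moved in the same cells, the 5 endocardial markers from 132 to 519 CPM in sum and the 7 arterial markers from 367 to 205 CPM. In an Eln-led sub-cluster of 21 control and 87 mutant cells, which raised 5 of 7 arterial and 4 of 5 endocardial markers as well as 3 of 10 mesenchyme and 4 of 8 cardiomyocyte markers, the levels were 305 and 237 CPM. That was the highest Edn1 level of any sub-cluster in both libraries, and the ratio there was -0.36. Lymphatic endothelial-like cells, with 7 of 7 lymphatic markers, stood at 6.7 and 36.0 CPM in 19 and 35 cells. These levels came from 3 control UMIs, all in 1 cell, and 32 mutant UMIs. Arterial endothelial-like cells stood at 50.9 and 30.9 CPM in 13 and 39 cells, from 13 and 15 UMIs. Their ratio of -0.72 (-1.89 to 0.47) could not be told from 0. Without the Eln-led cells of a finer clustering of all cells (17 control and 85 mutant), the endothelial-like ratio of Edn1 was 1.73 in place of 1.01.

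**Figure D3:**
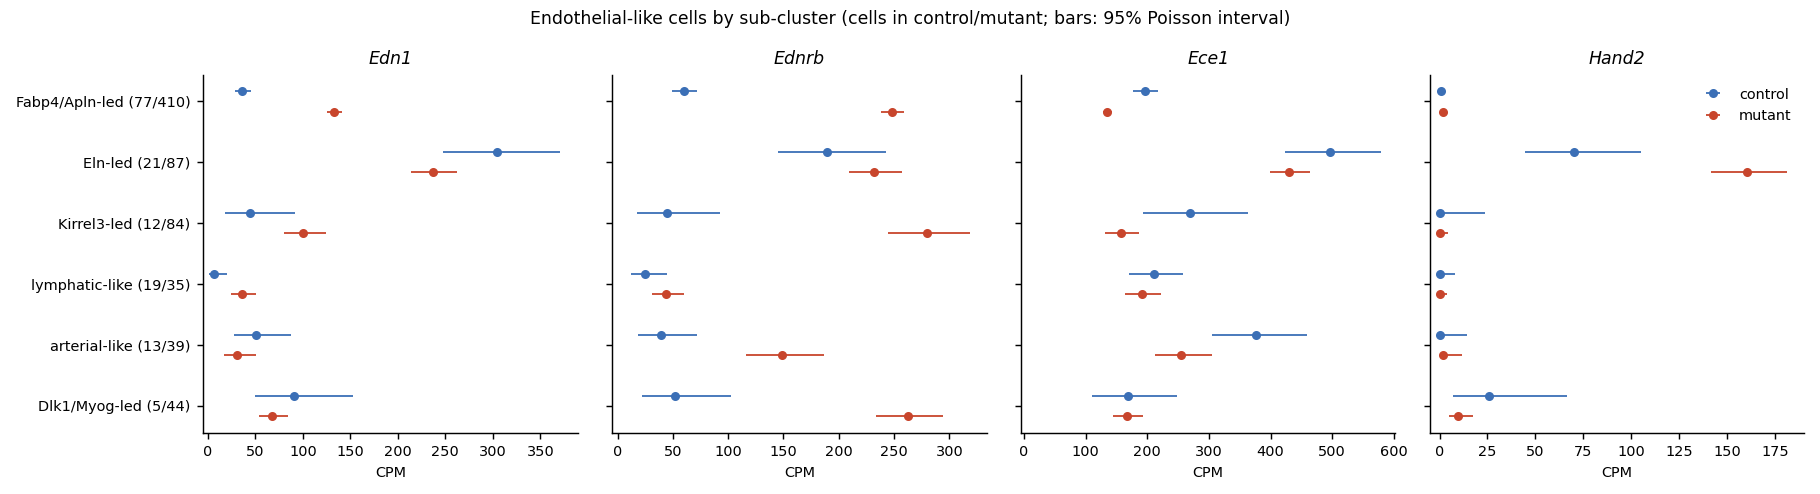
CPM of Edn1, Ednrb, Ece1 and Hand2 in the 6 sub-clusters of endothelial-like cells (points, control blue and mutant red; bars, 95% Poisson intervals; cell numbers in brackets). Ednrb is higher in the mutant library in the Fabp4/Apln-led, Kirrel3-led, arterial-like and Dlk1/Myog-led cells with intervals that do not overlap, Ece1 in the Fabp4/Apln-led cells is lower (196 and 135 CPM), and Hand2 is found mainly in the Eln-led cells.

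Outside the endothelial-like class, Edn1 counts were low but higher in the mutant library in several classes. Neuron-like cells had 0 UMIs in the control library, where a floor of 3 counts is 0.89 CPM, and 26 UMIs or 3.5 CPM in the mutant library, at least 3.94-fold higher. Mesenchyme-like cells had 2 and 52 UMIs, a log2 ratio of 4.90 (2.98 to 7.99), and 26 of the 52 lay in 56 Eln-led cells of that class. Branchial muscle-like cells had 2 and 22 UMIs and a ratio of 3.73.

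Endothelial marker UMIs moved with these low counts. Mutant neuron-like cells with Edn1 (12 cells) had 1818 CPM of 12 endothelial markers against 60.8 CPM in those without, branchial muscle-like cells (15) 289 against 83.6 CPM, and mesenchyme-like cells (32) 338 against 140 CPM. The 12 markers summed to 43.4 CPM in control and 87.9 CPM in mutant branchial muscle-like cells, with 0 markers absent in either. Per 1000 endothelial marker UMIs, Edn1 stood at 18.0 in mutant endothelial-like, 12.9 in branchial muscle-like, 35.9 in mesenchyme-like and 30.4 in neuron-like cells. Whether endothelial RNA or doublets gave the low counts was not tested.

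In epithelium-like cells, the source of EDN1 in the early arches, Edn1 stood at 9.3 CPM in the control and 7.4 CPM in the mutant library, with 38 and 41 UMIs and a ratio of -0.32 (-0.99 to 0.36), so no difference was detectable at this depth. Mesothelium-like cells had 6 and 15 UMIs, a ratio of 2.28 that was -1.87 after thinning to 5000 UMIs per cell. The genes whose levels across 42 points (fine cluster and library, sharing libraries and depth) were most like those of Edn1 were Mmrn2, Sox17 and Nos3, at correlations of 0.90, 0.89 and 0.89 on the log scale. Mmrn2 is an endothelial matrix protein, Sox17 a transcription factor of arterial endothelium and Nos3 the endothelial nitric oxide synthase.

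Edn3, the precursor of endothelin-3 (chr2:174760619-174784042, plus strand), was a gene of branchial muscle-like cells, and its level there was near equal in the libraries. The class held 2416 control and 1891 mutant UMIs, at 103 CPM (99.1 to 107) and 97.1 CPM (92.8 to 102), a log2 ratio of -0.09 (-0.17 to 0.00). A UMI was found in 71.2% and 67.7% of these cells, or 35.5% and 34.5% after thinning, while neuron-like cells gave 3.01% and 1.97% at median depths of 16936.5 and 13680 UMIs. Within the mutant library, female-like and male-like branchial muscle-like cells stood at 97.9 and 97.3 CPM.

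Edn3 was not even across the muscle lineage. A cluster led by Msc and Itm2a that also had Myf5 and Pax7 among its leading genes stood at 137 CPM in the control and 110 CPM in the mutant library, a cluster led by histone genes at 116 and 99.8 CPM, and a Bmpr1b-led cluster at 105 and 121 CPM. Clusters with differentiation genes stood at 75.9 and 102 CPM in the Myog-led cluster, Myog being the myogenin gene, and at 39.5 and 51.9 CPM in the cluster led by the contractile genes Mylpf and Myh3. In the control library the Myog-led cluster was below the Msc-led, histone-led and Bmpr1b-led clusters, in the mutant library it lay among them, and the contractile cluster was below the other four in both. In control branchial muscle-like cells, Msc, a repressor expressed in branchial muscle precursors, was found in 81.6% of cells with Edn3 and in 39.8% of those without, and the mutant shares were 79.6% and 51.5%. Pax7, the satellite cell factor, was found in 72.9% against 38.3% of control cells and 64.3% against 45.6% of mutant cells; cells with more UMIs show more of both genes of a pair.

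Elsewhere Edn3 was lower. Mesenchyme-like cells stood at 19.1 and 21.7 CPM and epithelium-like cells at 21.4 and 22.5 CPM, with ratios of 0.18 and 0.07. In endothelial-like cells the level was 11.7 CPM from 38 control UMIs and 6.4 CPM from 89 mutant UMIs, a ratio of -0.87 (-1.44 to -0.29). The Dlk1/Myog-led cells held 7 of the control and 49 of the mutant UMIs, and 1 mutant cell held 19. In the Fabp4/Apln-led cells Edn3 stood at 10.5 and 3.7 CPM. Branchial muscle markers in the endothelial-like class summed to 105 and 13.9 CPM, and their part in the Edn3 difference was not tested. In mesothelium-like cells, 23 and 4 UMIs gave -1.56 (-3.56 to -0.02), which turned to 0.30 with classes set by marker counts. The genes most like Edn3 over the 42 points were Cep41, Fndc3c1 and Pitx3 (0.93, 0.90 and 0.90), Pitx3 being a homeobox gene of muscle and lens.

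Ece1, the membrane protease that cuts the endothelin precursors to active peptides (chr4:137862237-137965229, plus strand), was found in most classes and was highest in endothelial-like cells, where its level was lower in the mutant library. There it stood at 245 CPM (228 to 263) and 181 CPM (175 to 189), from 794 and 2526 UMIs, a log2 ratio of -0.43 (-0.55 to -0.32). A UMI was found in 92.5% of control and 81.4% of mutant cells, and in 70.1% and 53.8% after thinning. The cardiomyocyte-like cells gave 5.56% and 7.07% unthinned. All 6 endothelial sub-clusters were lower in the mutant library or near equal: the Fabp4/Apln-led cells stood at 196 and 135 CPM, the arterial endothelial-like cells at 376 and 255 CPM and the Eln-led cells at 497 and 431 CPM. With the Eln-led cells drawn by the finer clustering of all cells, the direction there was the other way. These cells stood at 350 CPM (284 to 427) in the control and 438 CPM (406 to 473) in the mutant library.

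The difference in Ece1 was the other way in some classes. Epithelium-like cells stood at 83.0 and 108 CPM, a ratio of 0.38 (0.19 to 0.58), and mesothelium-like cells at 66.3 and 122 CPM, a ratio of 0.89 (0.54 to 1.23). Mesenchyme-like cells stood at 41.96 and 47.7 CPM and branchial muscle-like cells at 20.6 and 23.3 CPM, ratios of 0.19 and 0.18. Neuron-like cells stood at 34.4 and 26.6 CPM. The endothelial-like cells gave 28.6% of all control and 54.2% of all mutant Ece1 UMIs, the lower level per UMI set against the larger number of cells. Cd2ap, Efna1 and Aplp2 were the genes most like Ece1 (0.83, 0.82 and 0.81). Thus within endothelial-like cells the ligand precursor Edn1 and the receptor Ednrb were at higher levels in the mutant library while the processing enzyme was at a lower one.

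Ednra, the endothelin-1 receptor of neural crest mesenchyme and smooth muscle (chr8:77663031-77724464, minus strand), was a mesenchymal gene with lower levels in the mutant library. Mesenchyme-like cells held 1230 control and 767 mutant UMIs, at 115 CPM (109 to 122) and 82.6 CPM (76.9 to 88.7), a log2 ratio of -0.48 (-0.61 to -0.35). The shares of cells with a UMI were 55.7% and 53.4%, and after thinning 33.0% and 30.6%, while endothelial-like cells gave 4.76% and 4.72%. The class itself differed between libraries: its 10 mesenchyme markers summed to 11455 CPM in the control and 3776 CPM in the mutant library, with 0 absent in either, and the 9 smooth muscle or mural markers to 408 and 1298 CPM. Their part in the Ednra, Hand2, Dlx5 and lower jaw differences of this class was not tested. The mesenchyme-like ratio depended on where the class was drawn: it was -0.12 without integration and 0.076 with classes set by marker counts. At the finer clustering it was -0.025, but only the cluster led by Lum and Twist1 was named mesenchyme-like there. That value leaves out the Col2a1-led and Eln-led cells described next.

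Within the mesenchyme-like class the finer clustering separated cells of different Ednra level. The cluster led by Lum and Twist1 (415 control and 382 mutant cells of the class) stood at 73.3 and 72.1 CPM. The Col2a1-led cluster, which raised 5 of 5 cartilage markers (182 and 144 cells), stood at 271 and 173 CPM. The Eln-led cells of the class (12 and 56) stood at 119 and 33.0 CPM. The lower class level thus lay in the cartilage-marked and Eln-led cells.

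Lung or foregut mesenchyme-like cells had the highest Ednra level of the 8 compared classes. They stood at 280 CPM (269 to 292) and 160 CPM (141 to 181), from 2357 and 260 UMIs in 345 and 66 cells, a ratio of -0.81 (-0.998 to -0.62), with a UMI in 95.7% and 80.3% of cells. Only 4 of the 66 mutant cells were female-like, 57 were male-like, and the control cells were nearly all female-like, so genotype and sex cannot be told apart there. Smooth muscle or mural-like cells stood at 250 and 227 CPM, a ratio of -0.14 (-0.50 to 0.21), from 37 and 26 cells. Cardiomyocyte-like cells stood at 47.3 and 9.5 CPM from 41 and 31 UMIs, a ratio of -2.31 (-3.03 to -1.60) that was 0.045 after thinning. The genes most like Ednra were Prdm6, a regulator of smooth muscle, Bmp5, a bone morphogenetic protein, and Rbm46 (0.93, 0.92 and 0.92).

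Ednrb, the receptor known from melanocyte and enteric precursors (chr14:103814625-103844402, minus strand), had the largest difference of the well-counted members in endothelial-like cells. The class held 212 control and 3244 mutant UMIs, at 65.4 CPM (56.9 to 74.8) and 233 CPM (225 to 241), a log2 ratio of 1.83 (1.63 to 2.04). The share of cells with a UMI was 43.5% in the control and 76.7% in the mutant library, and 25.0% and 55.3% after thinning. Branchial muscle-like cells gave 3.15% and 5.35%. In the control library 13 endothelial-like cells had more than 5 UMIs and the highest cell had 13, and in the mutant library 213 had more than 5 and the highest had 72. Mutant female-like and male-like cells stood at 262 CPM (248 to 277) and 223 CPM (212 to 233), each far above the 65.5 CPM of control female-like cells.

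Over the whole class, subtype markers differed as well: the arterial markers summed to 790 CPM in the control and 409 CPM in the mutant library, the lymphatic markers to 622 and 365 CPM, and the endocardial markers to 329 and 662 CPM, and their part in the Edn1 and Ednrb differences was not tested. The Ednrb difference was beyond counting error in the Fabp4/Apln-led, Kirrel3-led, arterial endothelial-like and Dlk1/Myog-led sub-clusters. Apart from the Fabp4/Apln-led cells, the control side of these rested on few UMIs. The counts were 7 in 12 Kirrel3-led, 10 in 13 arterial endothelial-like and 8 in 5 Dlk1/Myog-led control cells. The Fabp4/Apln-led cells stood at 59.8 and 249 CPM, a ratio of 2.05, the Kirrel3-led cells at 44.8 and 280 CPM, a ratio of 2.64, and the arterial endothelial-like cells at 39.2 and 148 CPM, a ratio of 1.92. In Eln-led cells (189 and 232 CPM) the ratio was 0.30 (-0.09 to 0.71). In lymphatic endothelial-like cells (24.7 and 43.9 CPM) it was 0.83 (-0.16 to 1.94), and both intervals include 0. The Eln-led value depends on the border drawn. Endothelial-like cells in the Eln-led cluster of the finer clustering (17 control and 85 mutant) stood at 65.6 and 185 CPM. The Kirrel3-led cells were shallow, with a median of 8081.5 UMIs in the mutant library, and the Dlk1/Myog-led cells, at 51.9 and 263 CPM, also raised 3 of 8 branchial muscle and 4 of 9 epithelium markers.

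Ligand and receptor were seldom found in the same control endothelial-like cell. Edn1 and Ednrb were both found in 9 of 147 control cells, 6.12% (2.84 to 11.3), and in 272 of 699 mutant cells, 38.9% (35.3 to 42.6). Cells with Edn1 alone were 29 of 147 and 64 of 699, and cells with Ednrb alone were 55 of 147 and 264 of 699, 37.4% and 37.8%. In the control library Ednrb was found in 23.7% of cells with Edn1 and 50.5% of cells without. In the mutant library these shares were 81.0% and 72.7%. After thinning they were 4.55% (1 of 22) and 28.7% in the control and 56.3% and 54.9% in the mutant library. In the Fabp4/Apln-led cells alone, both genes were found in 7 of 77 control cells (9.09%) and in 201 of 410 mutant cells (49.0%), and in the arterial endothelial-like cells in 0 of 13 and 0 of 39. Shares of double-positive cells follow the levels of both genes, and cells of 1 library are not replicates.

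Control endothelial-like cells gave 6.46% of the control Ednrb UMIs. In the other classes that gave most of these UMIs, the level was lower in the mutant library. Neural crest-like cells stood at 721 CPM in 80 control and 389 CPM in 35 mutant cells, a ratio of -0.89 (-1.08 to -0.70), and in their glial-type fine cluster, led by Fabp7 and Sox10, at 1060 and 633 CPM. In that control class, Sox10, the neural crest glial factor, was found in 54 of 59 cells with Ednrb and in 2 of 21 without. Smooth muscle or mural-like cells stood at 945 and 621 CPM, a ratio of -0.61 (-0.81 to -0.41). There 36 of the 37 control cells were female-like and 22 of the 26 mutant cells male-like. Genotype and sex thus cannot be told apart in these cells, nor in the lung or foregut mesenchyme-like cells. Macrophage-like cells stood at 182 and 76.5 CPM. Lung or foregut mesenchyme-like cells stood at 63.6 and 49.3 CPM, a ratio of -0.37 (-0.73 to -0.03) that turned to 0.030 without integration, and neuron-like cells at 26.9 and 16 CPM, a ratio of -0.75. In mesenchyme-like cells (13.3 and 11.0 CPM), 30 of the 142 control UMIs came from 1 cell that also held the melanocyte genes Dct and Pmel. No gene was closely like Ednrb over the 42 points, the nearest being Tspan18, Ubl3 and Pros1 at 0.75 each.

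**Figure D4:**
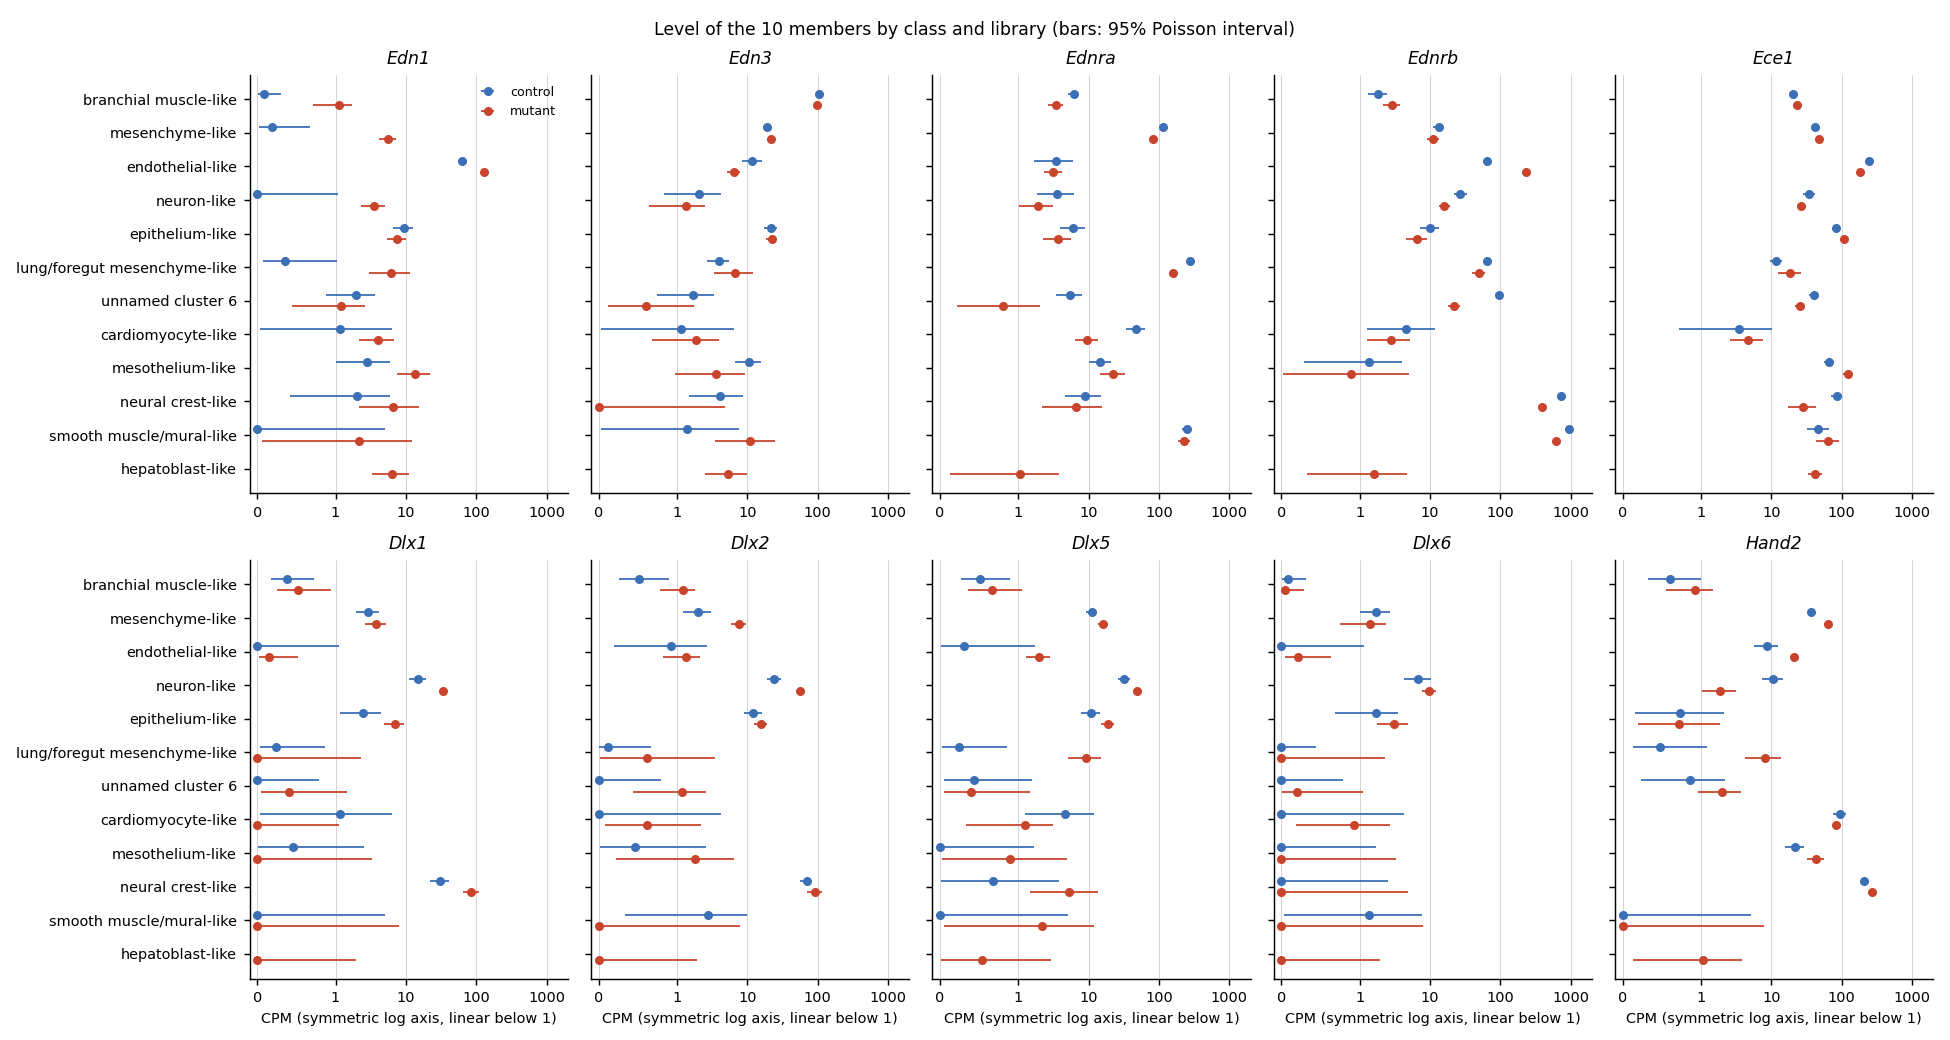
CPM of the 10 members in each class for control (blue) and mutant (red), on a symmetric log axis that is linear below 1; bars are 95% Poisson intervals, and hepatoblast-like cells have mutant points alone. Edn3 overlaps between libraries in branchial muscle-like cells, Ednra is lower in the mutant library in both mesenchyme classes, and Ednrb is higher in endothelial-like cells and lower in neural crest-like and smooth muscle or mural-like cells.

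Hand2, the bHLH factor that acts downstream of EDNRA in the lower jaw and is also a heart and sympathetic neuron factor, was higher in the mesenchyme of the mutant library. Mesenchyme-like cells stood at 37.1 CPM (33.5 to 40.9) and 63.1 CPM (58.1 to 68.5), from 396 and 586 UMIs, a log2 ratio of 0.77 (0.58 to 0.96), in the class whose mesenchyme markers summed to 11455 and 3776 CPM. The shares of cells with a UMI were 24.1% and 31.6%, and 12.0% and 18.5% after thinning, while epithelium-like cells gave 1.42% and 1.31%. The Lum and Twist1-led cells stood at 44.4 and 58.8 CPM and the Col2a1-led cells at 10.004 and 47.6 CPM. In this class Hand2 was higher and Ednra, its upstream receptor, lower (-0.48). Among control mesenchyme-like cells Hand2 was found in 21.2% of those with Ednra and 27.8% of those without, and in the mutant library in 34.4% and 28.5%.

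In endothelial-like cells the higher Hand2 level came from the Eln-led cells. The class stood at 8.6 and 20.8 CPM, a ratio of 1.27 (0.70 to 1.88). Eln-led cells of the finer clustering had 1 UMI in 17 control cells and 251 UMIs in 85 mutant cells, 3.7 and 164 CPM. In the remaining 130 and 614 endothelial-like cells the level was 9.1 CPM in the control and 3.1 CPM in the mutant library, a ratio of -1.57. The Eln-led sub-cluster of the endothelial-like cells alone, whose borders differ, stood at 70.1 and 161 CPM. It held 23 of the 28 control and 262 of the 289 mutant UMIs of the class. The ratio of -1.57 thus depends on where the border of the Eln-led cells is drawn. This sub-cluster raised 5 of 7 arterial, 4 of 5 endocardial, 4 of 8 cardiomyocyte and 3 of 10 mesenchyme markers. Its endocardial markers summed to 1768 CPM in the control and 1219 CPM in the mutant library. The part of these cell types in the Hand2 level was not tested.

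Hand2 was also found in other classes. Cardiomyocyte-like cells stood at 93.5 and 83.7 CPM, a ratio of -0.16 (-0.52 to 0.22). In neural crest-like cells, at 209.5 and 271 CPM, Hand2 lay in the sympathetic-type cells led by Cartpt and Dbh, the latter the enzyme that makes noradrenaline, at 581 and 568 CPM. Mesothelium-like cells stood at 21.6 and 42.9 CPM, a ratio of 0.99. Neuron-like cells stood at 10.7 and 1.9 CPM from 36 and 14 UMIs, a ratio of -2.50 (-3.51 to -1.58). There 1 control cell held 21 of the 36 UMIs and 1 mutant cell 9 of the 14, and after thinning the ratio was -1.03 (-3.60 to 1.74). Hand2os1, the overlapping antisense gene, was the gene most like Hand2 (0.98) and had a ratio of 0.97 in mesenchyme-like cells; it shares reads with Hand2 if strand was not used.

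Dlx5 and Dlx6, the paired lower jaw factors, were found in neuron-like, mesenchyme-like and epithelium-like cells. In mesenchyme-like cells Dlx5 stood at 11.1 CPM (9.2 to 13.3) and 16.2 CPM (13.7 to 19.0), from 119 and 150 UMIs, a log2 ratio of 0.54 (0.18 to 0.90), although a UMI was found in 8.03% and 7.99% of cells. Branchial muscle-like cells gave 0.34% and 0.594%. Dlx6 in mesenchyme-like cells stood at 1.7 and 1.4 CPM from 18 and 13 UMIs, and its ratio of -0.27 could not be told from 0 at this depth. Dlx6 was found in 22.4% of control mesenchyme-like cells with Dlx5 and 0.36% of those without, and in 19.1% and 0.55% of mutant cells. Hand2 was found in 22.4% of control cells with Dlx5 and 24.2% of those without, and in 21.3% and 32.5% of mutant cells, so Hand2 was no more frequent among cells with Dlx5.

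In epithelium-like cells Dlx5 stood at 10.7 and 18.7 CPM, a ratio of 0.80 (0.28 to 1.34). An Oc90-led cluster there (35 control and 14 mutant cells), Oc90 being a gene of the inner ear epithelium, stood at 23.1 and 173 CPM. The epithelial ratio was -0.27 with classes set by marker counts and -0.041 as a mean over cells. In endothelial-like cells 1 and 27 UMIs gave 2.65 (0.05 to 8.01), and 24 of the 27 lay in Eln-led cells. In lung or foregut mesenchyme-like cells all 15 mutant UMIs came from 1 cell.

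In neuron-like cells Dlx1, Dlx2 and Dlx5 were higher in the mutant library beyond counting error, and the interval of Dlx6 included 0. Dlx1, which with Dlx2 drives GABAergic interneuron fate, stood at 14.8 and 34.2 CPM, a log2 ratio of 1.21 (0.76 to 1.67). Dlx2 stood at 24.3 and 55.8 CPM, a ratio of 1.201 (0.86 to 1.56), and Dlx5 at 32.3 and 48.3 CPM, a ratio of 0.58 (0.27 to 0.90). Dlx6 stood at 6.8 and 9.8 CPM, a ratio of 0.53 (-0.17 to 1.27). All 4 were concentrated in the Dcc-led fine cluster, at 24.6 and 55.7 CPM for Dlx1 and 41.0 and 87.9 CPM for Dlx2. A UMI of any of the 4 was found in 28 of 166 control cells, 16.9% (11.5 to 23.5), and in 95 of 456 mutant cells, 20.8% (17.2 to 24.9).

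**Figure D5:**
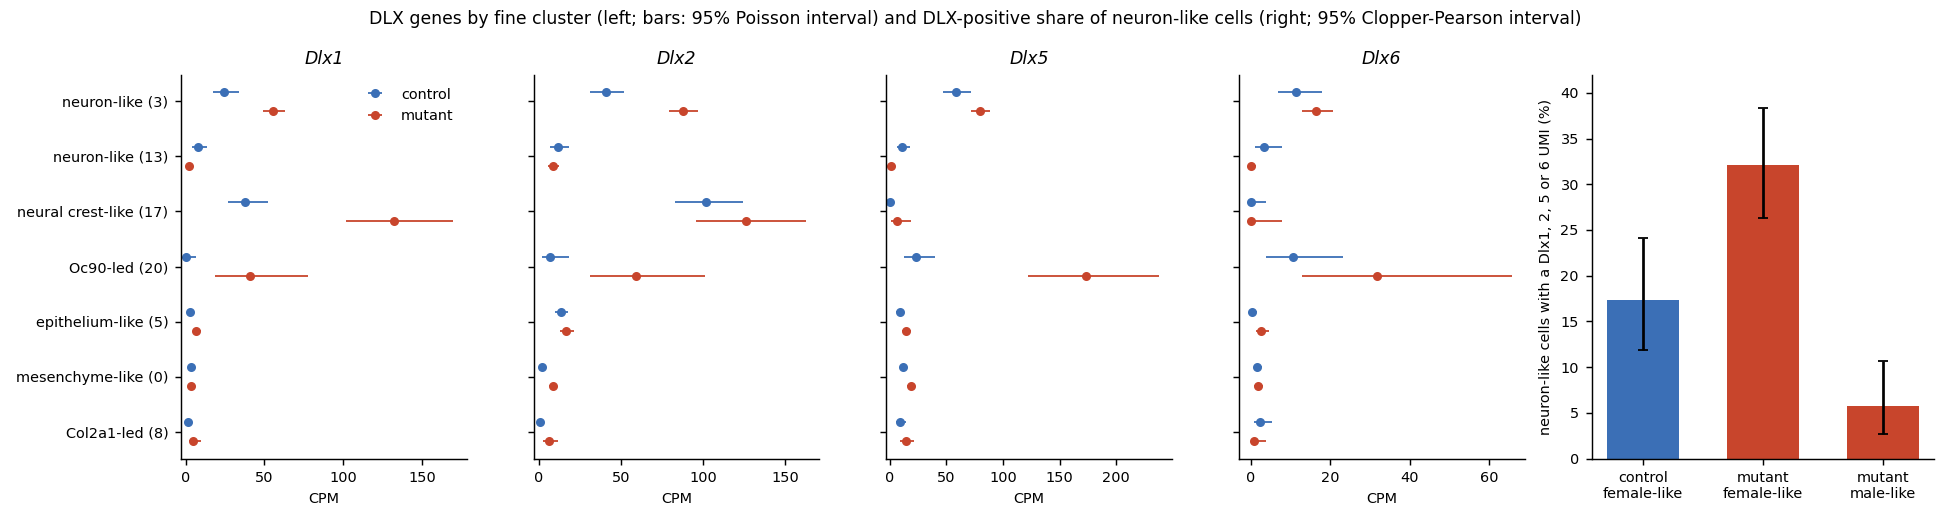
Left, CPM of Dlx1, Dlx2, Dlx5 and Dlx6 in 7 fine clusters (numbers in brackets) for control (blue) and mutant (red), with 95% Poisson intervals. Right, percent of neuron-like cells with a UMI of any of the 4, with 95% Clopper-Pearson intervals, at 17.4% in control female-like, 32.1% in mutant female-like and 5.77% in mutant male-like cells.

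The higher DLX levels of mutant neuron-like cells came from the female-like cells. Dlx2 stood at 24.6 CPM in control female-like, 90.7 CPM in mutant female-like and 4.7 CPM in mutant male-like cells. Dlx1 stood at 15.02, 56.7 and 3.2 CPM, Dlx5 at 32.7, 80.7 and 4.3 CPM, and Dlx6 at 6.9, 16.6 and 0 CPM (up to 1.46) in the same order. Any of the 4 was found in 78 of 243 mutant female-like cells, 32.1% (26.3 to 38.4), and in 9 of 156 mutant male-like cells, 5.77% (2.67 to 10.7). The direction of the genotype difference thus depended on which mutant cells were set against the control cells, and the embryo of a cell is not given beyond its sex.

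The DLX cells of the neuron-like and mesenchyme-like classes differed in what else they held. Of neuron-like cells with a DLX UMI, 16 of 28 control (57.1%) and 69 of 95 mutant cells (72.6%) also held Gad1 or Gad2, the GABA-synthesising enzymes, whereas of mesenchyme-like cells with a DLX UMI 0 of 60 and 1 of 86 did. Gad2 was found in 38.1% of control neuron-like cells with Dlx5 and 12.4% of those without, and in 87.7% and 18.9% of mutant cells. In the mutant cells Dlx6 was found in 40 of 65 cells with Dlx5 and 1 of 391 without, and Dlx2 in 45 of 49 cells with Dlx1. The neuron-like class gave 62.7% of all mutant Dlx1 UMIs and 65.8% of all mutant Dlx6 UMIs, and mesenchyme-like cells 8.64% and 11.7%. In the control library the neuron-like shares were 33.6% of Dlx1, 29.8% of Dlx2, 37.1% of Dlx5 and 45.1% of Dlx6 UMIs. There neural crest-like cells gave 37.5% of Dlx2 and mesenchyme-like cells 40.5% of Dlx5. A level over all cells would thus mix classes, with neuron-like cells the main source in the mutant library.

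Dlx1 and Dlx2 were also found in neural crest-like, mesenchyme-like and epithelium-like cells. The glial-type neural crest-like cluster stood at 37.9 and 133 CPM for Dlx1 and 102 and 126 CPM for Dlx2. In mesenchyme-like cells Dlx2 stood at 2.0 and 7.5 CPM from 21 and 70 UMIs, a ratio of 1.94 (1.22 to 2.72), with a UMI in 1.80% and 6.29% of cells, while Dlx1 had 31 and 35 UMIs and a ratio of 0.38. In branchial muscle-like cells Dlx2 had 12 and 24 UMIs and a ratio of 1.27. In epithelium-like cells Dlx1 had 10 and 38 UMIs, a ratio of 1.5. Dlx2 there stood at 12.2 and 15.6 CPM, a ratio of 0.36 that was 1.71 (0.41 to 3.28) after thinning and -0.68 in female-like cells, and 1 control cell held 29 of the 50 UMIs. Dlx1 and Dlx2 were each the gene most like the other over the 42 points (0.95). Dlx6os1 was the nearest to Dlx5 (0.88), and Pax2, a factor of inner ear, kidney and midbrain, to Dlx6 (0.95).

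Genes that work with these members were read from 7 lists. Among lower jaw regulators in mesenchyme-like cells, 5 of 10 measured genes were higher by 2-fold or more, beside 5.57% of all genes, and 1 was lower, beside 7.35%, with a median log2 ratio of 0.89 against -0.01 over all genes. The higher ones were Msx1 (1.01) and Msx2 (1.34), homeobox genes of the distal arch, Hand1 (1.39), the close relative of Hand2, Gsc (1.22), the goosecoid gene that acts below DLX5 and DLX6, and Dlx3 (2.96). Barx1, a factor of proximal arch and tooth mesenchyme, was at -1.03, and Mef2c, the gene with the most UMIs in the list, at 0.07. Of the other arch regulators, 3 of 10 measured genes were higher there, beside 5.57% of all genes, and 0 were lower, beside 7.35%. The higher ones included Alx1 (1.63), a gene of the frontonasal mesenchyme, and Six2 (1.14).

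The endothelin pathway list held the other ligand Edn2, processing enzymes, G proteins, phospholipases and arrestins. It moved little in mesenchyme-like cells, with 1 of 15 genes higher (Ecel1; 5.57% of all genes), 0 lower (7.35%) and a median of -0.12, and in branchial muscle-like cells, with 0 of 15 in either direction (9.56% of all genes higher and 4.78% lower). In endothelial-like cells 0 of 13 were higher (9.18% of all genes) and 2 lower (6.18%), Plcb1 (-1.28), a phospholipase activated by Gq, and Pcsk5 (-1.48), a proprotein convertase; Gnaq, the Gq alpha subunit and the best counted gene of the list, was at 0.06. In neuron-like cells 0 of 15 were higher, beside 4.27% of all genes, and 4 were lower (Mme, Ece2, Plcb3 and Pcsk5), beside 9.96%. Mesothelium-like cells had 5 of 13 higher (Plcb1, Mme, Edn2, Furin and Pcsk5), beside 10.9%, and 0 lower, beside 5.75%.

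The remaining lists hold genes of the cell types in which the members are known to work. Of the forebrain partners of DLX genes, 4 of 6 were higher in neuron-like cells, beside 4.27% of all genes, and 0 lower, beside 9.96%. The higher ones included Gad2 (1.17), Slc32a1 (1.01), the vesicular GABA transporter, and the transcription factor Sp9 (5.79). Gad1 or Gad2 was held by 62 of 78 mutant female-like and 3 of 9 mutant male-like neuron-like cells with a DLX UMI. Of the noncoding neighbours in neuron-like cells, Dlx1as (2.03) and Dlx6os1 (1.91) were higher, 2 of 3 beside 4.27% of all genes. Hand2os1 (-1.17) was lower, 1 of 3 beside 9.96%. Of the melanocyte and enteric genes of the EDNRB lineages, all 5 measured were lower in mesenchyme-like cells, beside 7.35% of all genes. Their median was -3.52. In the control library 1 cell held 97.4% of the class's Dct, 95.6% of its Pmel and 100% of its Tyr UMIs. The same cell held 20.6% of the Mitf and 0% of the Ret UMIs. The partners of HAND2 were at a median of 0.16 in mesenchyme-like cells. There the cardiac factors Tbx20 (2.89) and Gata4 (2.73) were higher, 2 of 9 beside 5.57% of all genes, and 0 were lower, beside 7.35%. This class held 12 control and 56 mutant Eln-led cells, with Tbx20 among the leading genes of their fine cluster. Its 8 cardiomyocyte markers summed to 39.1 and 104 CPM. The part of these cells in the Tbx20 and Gata4 ratios was not tested. In endothelial-like cells Tbx20 (1.96) was higher, 1 of 9 beside 9.18% of all genes, and Tbx3 (-1.43) was lower, 1 of 9 beside 6.18%.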

How the data were processed

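Sorted eYFP-positive cells of 2 E13.5 pools of 3 mouse embryos each, 1 per genotype, were profiled with 10x 5′ v2 libraries. The authors deposited raw UMI counts per gene and cell, made with Cell Ranger 7.1.0 on mm10 per the labels; intron and strand settings and the annotation were not given in the sources used here. The 10 members and the lists were chosen with earlier results of these data known. Named genes are the members in each compared class and the genes of the lists; the 1 to 3 genes most like a member are also named. A few list genes are not reported here. Filters kept cells with over 2000 but under 9000 detected genes and a mitochondrial share below 10%. Libraries were integrated by CCA in Seurat 5.3.0 (R 4.3.3), cell cycle regressed, with 2000 variable genes that left out 73 member and list genes, 30 components and resolution 0.25, giving 15 clusters (24 at 0.8). A class needed 3 raised markers and its comparison 50 cells in each library. UMIs were summed per class and library; no test between genotypes was made. Thinning to 5000 UMIs left out 61 control and 173 mutant cells. Likeness is Pearson's correlation of log2(CPM + 10) over 9743 genes. Scrublet's own calls (0 and 1 cells) had not worked, so an alternative removed the 77 and 124 top-scoring cells. Interval code recovered known ratios in simulated independent counts. Each value was recomputed under 14 alternative settings and 3 more chosen after the data were seen, with Python 3.11.15 and edgeR 4.0.16 (TMM factors only).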

Additional observations from a re-analysis of the deposited data

Results flagged for a closer look

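Hand2 lay in opposite directions in 2 classes, with a log2 ratio of mutant over control of 1.27 in endothelial-like cells and -2.50 in neuron-like cells. The difference between the classes was not tested, since each genotype had 1 library. In endothelial-like cells 251 of the 289 mutant UMIs and 1 of the 28 control UMIs lay in Eln-led cells of the finer clustering. The ratio in the other endothelial-like cells was -1.57. The Eln-led sub-cluster of the endothelial-like cells alone held 23 control UMIs, so this ratio depends on the border drawn. In neuron-like cells the counts were 36 and 14 UMIs, 10.7 and 1.9 CPM, 1 control cell held 21 of the 36 and 1 mutant cell 9 of the 14, and the ratio was -1.03 (-3.60 to 1.74) after thinning and ran from -5.38 to -1.03 over 12 alternative settings.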

How the results depend on the processing

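Of 706 values recomputed under 14 alternative settings and 3 more chosen after the data were seen, 603 stayed within their counting interval (counts: within 1.5 times), 86 moved further and 17 changed direction among ratios whose interval left out 0; ratios whose interval included 0 changed sign another 42 times; which choice caused a move was not tested beyond the setting itself. The number of members past 2-fold in endothelial-like cells (4) was 2 after thinning (Ednrb higher and Edn3 lower) and 2 with male-like mutant cells; in mesenchyme-like cells (2) it was 1 after thinning and 0 at a minimum of 100 UMIs. Ednra in mesenchyme-like cells (-0.48) was -0.12 without integration, -0.025 at resolution 0.8, 0.076 with marker classes, -0.66 as a mean over cells and -0.33 with a minimum of 1000 genes. Dlx5 there (0.54) was 1.01 with marker classes, and Hand2 (0.77) was 0.40 at resolution 0.8, 0.57 with marker classes and 1.02 in female-like cells. At resolution 0.8 only the Lum and Twist1-led cluster was named mesenchyme-like. The Ednra and Hand2 values at that resolution thus leave out the Col2a1-led and Eln-led cells. In endothelial-like cells, resolution 0.8 and leaving out the Eln-led fine cluster kept the same 130 control and 614 mutant cells. They are therefore the same check, and the totals above count it under both settings. Edn1 in endothelial-like cells (1.01) was 1.73 at resolution 0.8 and without the Eln-led fine cluster, 0.78 as a mean over cells, 0.61 after thinning and 1.83 without the Eln-led and Dlk1/Myog-led sub-clusters. Without those sub-clusters Ednrb (1.83) was 2.16 and Ece1 (-0.43) was -0.58. Ece1 was -0.65 at resolution 0.8 and without the Eln-led fine cluster, -0.31 with TMM scaling and -0.30 in female-like cells. Directions turned in endothelial-like cells at resolution 0.8 and without the Eln-led fine cluster for Dlx5 (-0.48) and Hand2 (-1.57); in neuron-like cells for Ednrb with marker classes (0.076) and, with male-like mutant cells, for Dlx1 (-2.23), Dlx2 (-2.36) and Dlx5 (-2.89). In epithelium-like cells Dlx5 turned to -0.27 with marker classes and -0.041 as a mean over cells; in lung or foregut mesenchyme-like cells Ednrb turned to 0.030 without integration and 0.45 with marker classes, and Ece1 to -0.27 without integration. Ednra in cardiomyocyte-like cells (0.045) and Edn1 in mesothelium-like cells (-1.87) turned after thinning, and Edn3 in mesothelium-like cells with marker classes (0.30).

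TMM scaling shifted the median of all genes by at most 0.10 (endothelial-like) and -0.10 (mesothelium-like). No paired analysis was possible because the labels carry no replicate numbers and each genotype has 1 library. Depth limits the low genes: 3 counts are 0.89 CPM in control neuron-like cells, and differences at or below such levels could not be seen.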
